A study of Homo sapiens with 9 samples.

Results

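The genes examined here are 45 genes of glycolysis and of the response to low oxygen: transporters of glucose and lactate, glycolytic enzymes and their regulators, subunits and oxygen sensors of the hypoxia-inducible factor (HIF), and targets of HIF. They were taken by gene symbol from a list of pathway members, and 42 of the 45 were measured, out of 11963 genes on the array. SLC16A1, SLC16A3 and CA9 had no probe set assigned to them alone and were not analysed here. Each gene was read from 1 probe set, the group of short oligonucleotides that stands for a transcript. Where a gene had several, as 21 of the 42 did (77 probe sets in all), the brightest one, by its mean intensity on the 9 arrays, was used. The study compared MDA-MB-231, a human breast cancer cell line grown as adherent epithelial cells, with derivatives resistant to docetaxel or to paclitaxel, drugs of the taxane class that bind microtubules. All cells were kept in 1 µM verapamil, an inhibitor of drug efflux pumps. The sensitive cells received nothing further, the docetaxel-resistant cells 2 nM docetaxel and the paclitaxel-resistant cells 7 nM paclitaxel. RNA from 3 passages of each was hybridized to Affymetrix human GeneChip arrays, 9 in all.

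Each resistance is represented by 1 line, and the drug was present in the medium, so the selected line and the drug itself cannot be told apart. Passages of a line are not separate selections, and p-values measure the spread between passages. The docetaxel and paclitaxel doses differ, so a difference between the lines is not a comparison of the drugs at matched dose. In such bulk RNA, fewer cells expressing a gene and less RNA per cell cannot be told apart. The medians of the 9 arrays ran from 33.7 to 43.9 in deposited intensity. Pairs of arrays of 1 group correlated at r = 0.967 to 0.992 over genes. Sensitive replicate 1 read 72 genes at least 1 log2 unit above both other sensitive arrays, LDHB and P4HA1 among them, and docetaxel-resistant replicate 3 did so for 126 genes, HIF1A among them. Of 12 luminal breast markers the keratins KRT8, KRT18 and KRT19 averaged 994, 3640 and 1519 in intensity in sensitive cells. The hormone receptors ESR1 and PGR averaged 40.5 and 7.84, beside an offset of 16 used in the analysis, and none of these levels is comparable between genes. The remaining luminal markers averaged from 5.74 (FOXA1) to 239 (AGR2), with EPCAM, GATA3 and CDH1 at 22.1, 80.7 and 83.3. Of 8 mesenchymal markers, VIM averaged 8335, and CD44, FN1, CAV1, AXL and MSN averaged 1216, 1574, 1059, 538 and 1718. ZEB1 and SPARC averaged 19.5 and 15.6, near the offset.

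Glycolysis splits glucose into pyruvate in the cytosol, and lactate dehydrogenase turns pyruvate into lactate. The oxygen-sensitive subunits HIF1A and EPAS1 are hydroxylated by EGLN enzymes when oxygen is present, bound by VHL and degraded. When oxygen is low they persist, pair with ARNT and switch on glucose transporters, most glycolytic enzymes, VEGFA and many others, and breast cancer cells often run this programme with oxygen present. HIF binds DNA at hypoxia response elements, whose core is ACGTG or GCGTG. The oxygen level of these cultures is not given in the sources used here, and HIF protein was not measured.

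To show what sequence lies ahead of the genes with the largest shared changes, 5 promoters were read from the RefSeq promoter table of build GRCh38.p14. These are the genes called in both resistant lines by at least 1 log2 unit in each with a single promoter in the table. Each sequence holds the 250 bases before the transcription start, 5′ to 3′ on the gene's strand, and capitals mark ACGTG and GCGTG on either strand (read as CACGT and CACGC on the other), joined where they touch. The windows are chr3:4979187-4979436 (plus strand) for BHLHE40, chr10:72273674-72273923 (plus) for DDIT4, chr10:131981924-131982173 (minus) for BNIP3, chr12:21657843-21658092 (minus) for LDHB and chr17:28576896-28577145 (minus) for ALDOC.
BNIP3: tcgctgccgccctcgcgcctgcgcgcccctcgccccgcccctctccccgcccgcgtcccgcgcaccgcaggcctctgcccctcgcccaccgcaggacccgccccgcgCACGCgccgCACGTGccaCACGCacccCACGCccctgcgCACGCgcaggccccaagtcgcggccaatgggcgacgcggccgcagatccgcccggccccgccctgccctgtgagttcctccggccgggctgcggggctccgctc
DDIT4: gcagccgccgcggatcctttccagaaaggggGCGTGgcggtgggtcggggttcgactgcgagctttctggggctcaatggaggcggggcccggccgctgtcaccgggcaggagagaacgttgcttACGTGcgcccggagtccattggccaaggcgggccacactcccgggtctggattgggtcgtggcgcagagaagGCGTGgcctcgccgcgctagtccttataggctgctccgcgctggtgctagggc
BHLHE40: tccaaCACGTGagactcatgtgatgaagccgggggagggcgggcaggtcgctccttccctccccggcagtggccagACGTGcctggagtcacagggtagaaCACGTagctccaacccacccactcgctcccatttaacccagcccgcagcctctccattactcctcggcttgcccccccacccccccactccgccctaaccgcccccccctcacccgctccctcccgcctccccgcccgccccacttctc
ALDOC: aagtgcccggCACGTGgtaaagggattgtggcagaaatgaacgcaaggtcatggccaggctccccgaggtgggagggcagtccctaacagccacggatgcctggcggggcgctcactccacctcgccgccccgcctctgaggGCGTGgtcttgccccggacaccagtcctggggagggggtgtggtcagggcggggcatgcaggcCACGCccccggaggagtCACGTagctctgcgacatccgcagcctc
LDHB: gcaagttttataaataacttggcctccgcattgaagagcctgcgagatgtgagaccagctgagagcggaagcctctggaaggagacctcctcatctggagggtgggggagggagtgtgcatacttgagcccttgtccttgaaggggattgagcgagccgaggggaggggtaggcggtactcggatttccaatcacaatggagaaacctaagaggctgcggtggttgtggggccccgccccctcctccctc
BNIP3 held 2 copies of ACGTG and 4 of GCGTG, and DDIT4 1 and 2, and both genes were lower in the resistant lines. ALDOC held 3 and 2, BHLHE40 held 4 copies of ACGTG and none of GCGTG, and LDHB held neither, and these 3 genes were higher. A CACGTG palindrome, which counts as ACGTG on both strands and is also an E-box, was present in BNIP3, BHLHE40 and ALDOC.

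Of the 42 measured genes, 36 had a promoter in the table, in 61 windows, and 37 of the windows (60.7%) held ACGTG or GCGTG, against 43.2% of all 35116 windows. ACGTG alone was in 39.3% of the windows of these genes and 18.5% of all windows, and GCGTG in 37.7% and 32.2%. CACGTG was in 13.1% and 6.34%. The core was present in 8 of 14 windows of the genes called lower in both lines and in 3 of 4 windows of those called higher in both. HK1 alone has many of the 14 windows, most of them without the core. By gene, 30 of the 36 held the core in at least 1 window, among them 6 of 6 lower genes with a window and 3 of 4 higher genes. A gene with more windows has more chances to hold it. The share by gene was not computed for all genes, so these counts show no difference by direction. NDRG1, VEGFA and SLC2A3, also called lower in both, had no window. A match describes the letters and does not show a bound site.

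Levels below are deposited intensities, linear values not comparable between genes and taken before the arrays were normalized here. Array medians ran from 33.7 to 39.1 in sensitive, 39.2 to 43.9 in docetaxel-resistant and 37.5 to 41.8 in paclitaxel-resistant cells. So these intensities are not on a matched scale between arrays. Differences are on the log2 scale after 16 was added and the arrays were quantile-normalized, and are given ± the standard error from limma's linear model over all 9 arrays (n = 3 per group). A gene is called when its p-value falls below 0.05 after Benjamini-Hochberg adjustment over the 11963 genes. Where arrays are said to overlap or not, this refers to deposited intensities unless normalised values are named. The offset makes differences of genes with low intensity smaller than they are.

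In the docetaxel-resistant line 18 of the 42 genes (42.9%) were called, 6 higher and 12 lower, where 21.0% of all genes were called (10.8% higher and 10.2% lower). The paclitaxel-resistant line also had 18 called, 6 higher and 12 lower, against 21.6% of all genes (10.8% higher and 10.7% lower). Scaled by array medians instead, or not scaled, this last split became 3 higher and 14 lower, or 3 and 11. The shares of all genes given here and below include genes of low intensity. Among genes at or above the median level, 37.3% of all genes were called in the docetaxel comparison. Of the 42 genes, 38 lay at that level, and 21 of these were called. In the paclitaxel comparison 18 of the 38 were called, and the share of all genes was again larger than 21.6%. How much of the excess over all genes goes with level was not tested. The median difference of the 42 genes was -0.27 in the docetaxel and -0.18 in the paclitaxel comparison, and that of all genes -0.05 and -0.02. Both comparisons use the same 3 sensitive arrays, so they are not independent. The genes called lower in both were SLC2A3, HK1, HK2, PFKFB3, VEGFA, BNIP3, NDRG1, ADM and DDIT4, which is 9 of 42 where 7.02% of all genes were. ALDOC, LDHB, PLOD2 and BHLHE40 were called higher in both, 4 of 42, where 7.36% of all genes were. None of the 42 was called in opposite directions on the probe set used, where 0.0669% of all genes were; 1 other probe set of CA12 was. A moderated F test over the 3 groups called 21 of the 42, against 24.1% of all genes.

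Counted by normalised values alone, the 3 docetaxel-resistant arrays lay apart from the 3 sensitive ones for 29 of the 42 genes, 7 above and 22 below, where 36.8% of all genes lay apart (16.3% above and 20.5% below). The paclitaxel-resistant arrays did so for 22 genes, 6 above and 16 below, where 34.8% of all genes did (16.3% and 18.5%). The resistant lines lay apart from each other for 17 genes, with the paclitaxel-resistant arrays above for 9 and below for 8, where 20.4% of all genes did (10.0% above and 10.4% below). The mean log2 value of the 17 glycolytic enzymes ran from 10.85 to 10.93 in sensitive, 10.72 to 10.79 in docetaxel-resistant and 10.84 to 11.08 in paclitaxel-resistant arrays. For the 13 HIF targets it ran from 8.77 to 8.998, 8.68 to 8.76 and 8.65 to 8.81. So the docetaxel-resistant arrays lay below the sensitive ones in both averages, and the paclitaxel-resistant arrays overlapped them. For the HIF targets the gap was narrow, 8.759 in docetaxel-resistant replicate 3 against 8.769 in sensitive replicate 1. The median docetaxel difference of the 13 HIF targets was -0.050, beside -0.051 for all genes, and 7 of the 13 lay below 0. This average thus does not show the HIF targets lower as a group. Among passages of 1 group the genes varied with a median SD of 0.19, 0.10 and 0.18 log2 units in sensitive, docetaxel-resistant and paclitaxel-resistant cells, beside 0.20, 0.16 and 0.17 for all genes.

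**Figure D1:**
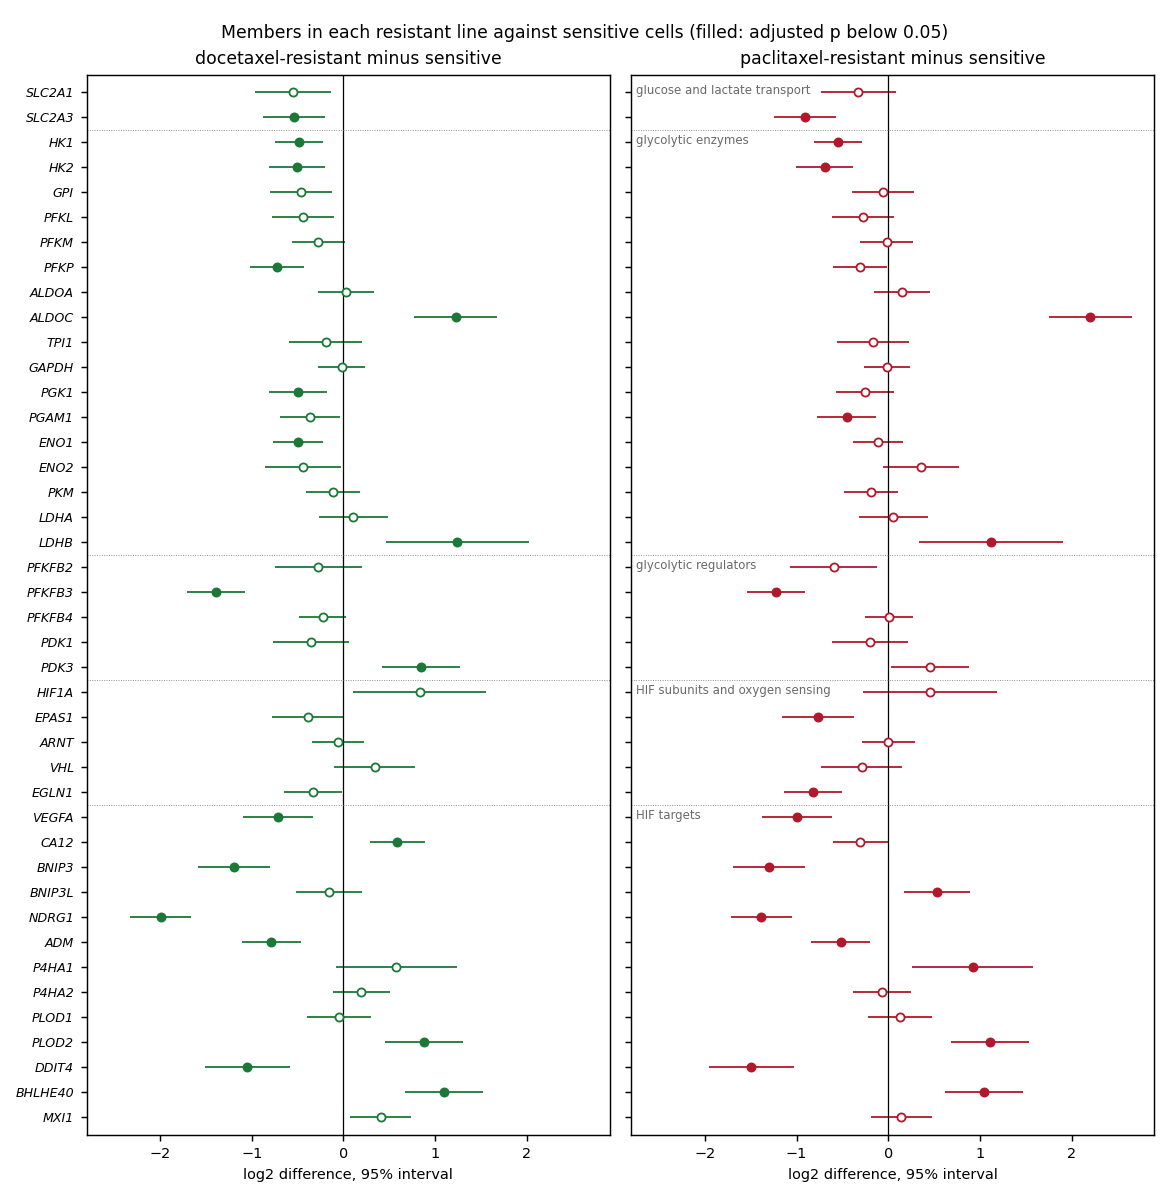
Log2 difference from sensitive cells with its 95% interval for each of the 42 measured genes, ordered by role, in the docetaxel-resistant (left) and paclitaxel-resistant (right) line; filled points have an adjusted p below 0.05. NDRG1 has the lowest value on the left (-1.99), DDIT4 the lowest (-1.49) and ALDOC the highest (2.20) on the right, and GAPDH lies near 0 in both (-0.02).

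Among the glucose transporters, SLC2A1, the basal transporter GLUT1, had intensities of 1167, 1411 and 1615 in the 3 sensitive arrays, 933, 1065 and 928 in the docetaxel-resistant and 1133, 917 and 1287 in the paclitaxel-resistant arrays. The docetaxel-resistant arrays all lay below the sensitive ones, and the paclitaxel-resistant arrays overlapped them. The differences were -0.55 ± 0.19 and -0.33 ± 0.19, and neither was called (adjusted p = 0.0591 and 0.269); the 95% intervals ran from -0.96 to -0.14 and from -0.74 to 0.09. Its docetaxel difference was called without sensitive replicate 1 (-0.75, adjusted p = 0.0105), with median scaling (0.0164), among genes at or above the median level (0.0405) and with limma's trend and robust options (0.0362). SLC2A3, the high-affinity transporter GLUT3, fell by 0.54 ± 0.15 in the docetaxel-resistant line (adjusted p = 0.0291) and by 0.91 ± 0.15 in the paclitaxel-resistant line (adjusted p = 0.00163). All 3 of its probe sets were called lower in both lines, down to -1.62 in the paclitaxel comparison. Its close copy SLC2A14 could contribute to these probe sets. The docetaxel call was lost without any one of sensitive replicates 2 and 3 or of the 3 docetaxel-resistant arrays (adjusted p = 0.0593 to 0.0961). It was also lost with an offset of 1 (0.0589), with the replicate block (0.0516) and with median scaling (0.0584). Without scaling the difference was -0.35 (adjusted p = 0.251).

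Of the 17 glycolytic enzymes, 5 fell and 2 rose in the docetaxel-resistant line, and 3 fell and 2 rose in the paclitaxel-resistant line. That is 41.2% and 29.4% called, where 21.0% and 21.6% of all genes were; in the paclitaxel comparison 11.8% were higher and 17.6% lower, against 10.8% and 10.7%. Their median difference was -0.37 and -0.11. At the entry to the pathway, HK1 and HK2, the hexokinases that phosphorylate glucose, fell in both lines, by 0.49 ± 0.12 and 0.55 ± 0.12 for HK1 and by 0.51 ± 0.14 and 0.70 ± 0.14 for HK2. PFKP, the platelet form of phosphofructokinase, fell by 0.72 ± 0.13 in the docetaxel-resistant line (adjusted p = 0.00293) and differed by -0.31 ± 0.13 in the paclitaxel-resistant line (adjusted p = 0.135). The liver and muscle forms PFKL and PFKM, at -0.44 and -0.27 in the first line and -0.28 and -0.02 in the second, were not called. Nor was GPI, glucose phosphate isomerase, at -0.46 (adjusted p = 0.0566) and -0.06. Its docetaxel difference was called under 9 of 18 alternatives, for instance without sensitive replicate 1 or paclitaxel-resistant replicate 1 or 3 (adjusted p = 0.0386 to 0.0491) and with median scaling (0.0218). With median scaling PFKP was also called lower in the paclitaxel-resistant line (-0.42, adjusted p = 0.0423). PFKL was called in the docetaxel comparison with an offset of 64 and among genes at or above the median level (adjusted p = 0.0397 and 0.0437).

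The HK1 call in the docetaxel-resistant line was lost without docetaxel-resistant replicate 2 or 3 (adjusted p = 0.0543 and 0.0555). That of HK2 was lost without any one of sensitive replicates 1 and 3 or the 3 docetaxel-resistant arrays (0.0511 to 0.0827). It was also lost with median scaling (0.0795), with probe sets averaged (0.0781) and without scaling (-0.35, adjusted p = 0.311). The paclitaxel call of HK2 was lost without scaling (adjusted p = 0.0566). In deposited intensity sensitive replicate 2 of HK2, at 124, lay within both resistant ranges, 122 to 159 (docetaxel) and 89.8 to 128 (paclitaxel).

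ALDOC, the brain form of aldolase, gave the largest increase in the paclitaxel-resistant line. Its intensities were 266, 359.9 and 292 in sensitive cells, 853, 871 and 634 in the docetaxel-resistant line and 1501, 1449 and 1468 in the paclitaxel-resistant line. The 3 groups did not overlap, and the paclitaxel-resistant arrays were the highest. ALDOC rose by 1.22 ± 0.21 in the docetaxel-resistant line (2.33-fold, adjusted p = 0.00175) and by 2.20 ± 0.21 in the paclitaxel-resistant line (adjusted p = 3.06e-05). The main aldolase of most cells, ALDOA, stood at 0.02 ± 0.14 and 0.15 ± 0.14 and was not called; with median scaling its values were -0.21 and -0.01, and unscaled -0.07 and 0.07.

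GAPDH read 12919, 11369.6 and 12580.5 in sensitive cells, 11256, 12149.5 and 12479.7 in the docetaxel-resistant and 11960.5, 11987 and 12574 in the paclitaxel-resistant arrays. The groups overlapped. It ranked between 1 and 6 among all probe sets on every array, where quantile normalization leaves little room to differ, and its differences were -0.02 ± 0.12 in both lines. Without scaling they were -0.04 and -0.01, and with median scaling -0.17 and -0.09. The array's control probes for the 3′ and 5′ ends of GAPDH differed by 0.014 to 0.039 log2 units in the sensitive, 0.0067 to 0.13 in the docetaxel-resistant and 0.094 to 0.20 in the paclitaxel-resistant arrays. Those for beta-actin differed by -0.26 to -0.02, -0.15 to -0.11 and -0.13 to 0.17. The part of this in the results was not tested.

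PGK1, phosphoglycerate kinase, which makes the first ATP of the pathway, read 4526, 4270.2 and 4797 in sensitive cells, 2719.9, 3124 and 3210.0 in the docetaxel-resistant line and 3042, 3602 and 3862 in the paclitaxel-resistant line. Both resistant lines lay below all sensitive arrays, though the paclitaxel-resistant arrays overlapped them after normalization. It fell by 0.49 ± 0.15 in the docetaxel-resistant line (adjusted p = 0.0324) and differed by -0.25 ± 0.15 in the paclitaxel-resistant line (adjusted p = 0.269), though it was called there with median scaling (-0.46, adjusted p = 0.0437). The docetaxel call was lost without any one of sensitive replicates 2 and 3 or the 3 docetaxel-resistant arrays (adjusted p = 0.0630 to 0.0921). Of the 3 PGK1 probe sets not used, 2 were called lower in both lines (-1.01 and -0.76 for one, -0.80 and -0.64 for the other), and the third only in the paclitaxel-resistant line (-0.95, against -0.17), so the size of the PGK1 difference depends on the probe set.

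Lower in the chain, ENO1, the widely expressed enolase, fell by 0.49 ± 0.13 in the docetaxel-resistant line (adjusted p = 0.0157) and stood at -0.11 in the paclitaxel-resistant line. The call was lost without sensitive replicate 2 or docetaxel-resistant replicate 1 or 3 (adjusted p = 0.0508 to 0.0542). ENO2, the neuronal enolase, stood at -0.44 and 0.36, neither called; without sensitive replicate 2 the second was 0.56 (adjusted p = 0.0396). PGAM1, phosphoglycerate mutase, fell by 0.45 ± 0.15 in the paclitaxel-resistant line (adjusted p = 0.0481), and the call was lost without any one array but paclitaxel-resistant replicate 3 (adjusted p = 0.0528 to 0.152). In the docetaxel comparison PGAM1 stood at -0.37 (adjusted p = 0.107), and was called with median scaling or the trend and robust options (0.0186 and 0.0468). TPI1, triose phosphate isomerase, at -0.19 and -0.16, and PKM, pyruvate kinase, at -0.12 and -0.19, were not called.

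Lactate dehydrogenase is built from LDHA and LDHB. LDHA, the form associated with lactate production, read 5633, 4036 and 6446 in sensitive cells, 4623, 5883 and 5716 in the docetaxel-resistant and 4765, 5014 and 5846 in the paclitaxel-resistant line. The groups overlapped, the differences were 0.11 ± 0.17 and 0.05 ± 0.17, and their 95% intervals ran from -0.27 to 0.48 and from -0.32 to 0.43. LDHB, the subunit that favours the reverse reaction, read 2759, 784 and 743 in sensitive cells, 2265, 2567 and 3809.6 in the docetaxel-resistant and 2799.8, 2330.3 and 2501 in the paclitaxel-resistant line. Sensitive replicate 1 lay among the resistant arrays, and the other sensitive arrays lay far below them.

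LDHB rose by 1.24 ± 0.36 in the docetaxel-resistant line (adjusted p = 0.0286) and by 1.12 ± 0.36 in the paclitaxel-resistant line (adjusted p = 0.0437). Without sensitive replicate 1 the differences were 1.76 and 1.64 (adjusted p = 0.000216 and 0.000325). The docetaxel call was lost without sensitive replicate 2 or 3 or docetaxel-resistant replicate 2 or 3 (adjusted p = 0.0524 to 0.113). The paclitaxel call was lost without sensitive replicate 2 or 3, docetaxel-resistant replicate 1 or 2, or any paclitaxel-resistant array (0.0526 to 0.166). Of 18 alternatives, 10 kept the docetaxel call and 5 the paclitaxel call. Both calls were also lost with an offset of 1 (adjusted p = 0.0659 and 0.0882) and with median scaling (0.0600 and 0.0827). The same held with only the 2 groups compared (0.0645 and 0.0600). A second LDHB probe set gave 1.15 and 1.09, called in both.

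**Figure D2:**
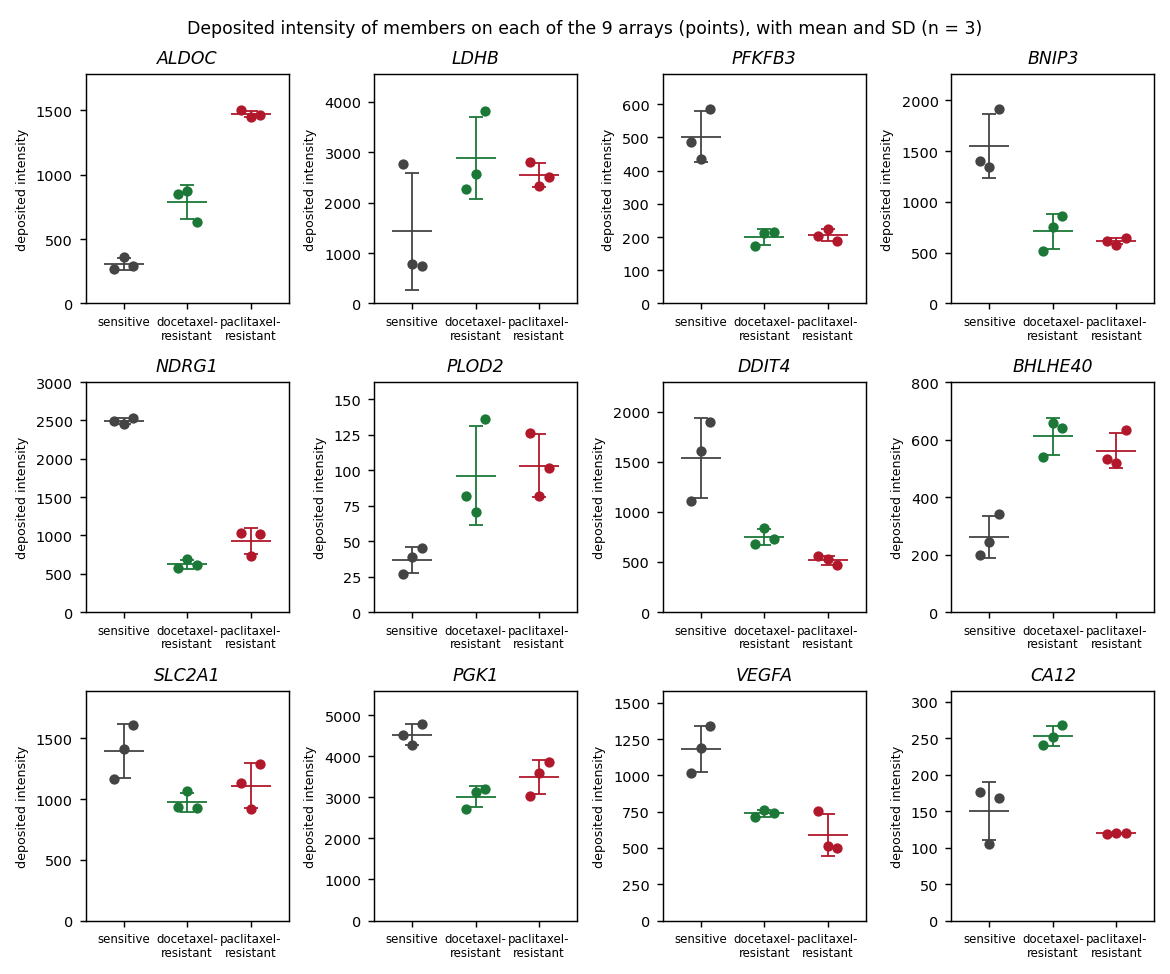
Deposited intensity (linear, from 0) on each of the 9 arrays for 12 genes, with points for arrays and bars for the mean and SD of 3 arrays per group. ALDOC and BHLHE40 are higher in all resistant arrays than in all sensitive ones, NDRG1 (2452 to 2526 in sensitive cells), PFKFB3, BNIP3 and DDIT4 are lower, and 1 sensitive array of LDHB (2759) lies among the resistant ones.

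Of the 5 regulators, PFKFB3 makes fructose 2,6-bisphosphate, the activator of phosphofructokinase, and is a target of HIF. Its intensities were 487, 435 and 585 in sensitive cells, 172, 212 and 216 in the docetaxel-resistant and 203, 224 and 188 in the paclitaxel-resistant line. All resistant arrays lay below all sensitive ones. It fell by 1.39 ± 0.14 (adjusted p = 7.55e-05) and 1.23 ± 0.14 (adjusted p = 0.000164). Of the related enzymes PFKFB2 and PFKFB4, at -0.28 and -0.23 in the docetaxel and -0.60 and 0.00 in the paclitaxel comparison, neither was called, but PFKFB2 was in the paclitaxel comparison without paclitaxel-resistant replicate 2 (-0.77, adjusted p = 0.0401) and with probe sets averaged (-0.40, adjusted p = 0.0489). PDK1 and PDK3 are kinases that switch off pyruvate dehydrogenase and so hold pyruvate back from the mitochondrion. PDK3 rose by 0.85 ± 0.19 in the docetaxel-resistant line (adjusted p = 0.00940) and stood at 0.46 in the paclitaxel-resistant line (adjusted p = 0.126; 0.64 and 0.0320 without sensitive replicate 1), while PDK1 stood at -0.35 and -0.20. A PDK3 probe set not used gave 0.60, called, and 0.41, not called. Another gave 0.28 (adjusted p = 0.220) and -0.08, neither called. PDK3 averaged 43.4 in intensity in sensitive cells.

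Among the 5 genes of the HIF complex and its oxygen sensing, none was called in the docetaxel-resistant line by limma, though 2 had an unadjusted p below 0.05. HIF1A read 204, 198 and 279 in sensitive cells, 309, 311 and 906 in the docetaxel-resistant and 462, 261 and 269 in the paclitaxel-resistant line. The docetaxel-resistant arrays all lay above the sensitive ones, with replicate 3 far above the rest, and the paclitaxel-resistant arrays overlapped the sensitive ones, though not after normalization. The differences were 0.83 ± 0.33 and 0.45 ± 0.33 (adjusted p = 0.103 and 0.396), and without docetaxel-resistant replicate 3 the first was 0.36. EPAS1, or HIF-2α, the other oxygen-sensitive subunit, fell by 0.77 ± 0.18 in the paclitaxel-resistant line (adjusted p = 0.00936) and stood at -0.39 in the docetaxel-resistant line, where it was called without sensitive replicate 1 (-0.60, adjusted p = 0.0163). EGLN1, the main HIF prolyl hydroxylase, fell by 0.82 ± 0.14 in the paclitaxel-resistant line (adjusted p = 0.00205) and stood at -0.33 in the other. ARNT, the shared partner subunit, at -0.06 and 0.00, and VHL, the ubiquitin ligase subunit, at 0.34 and -0.29, were not called.

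The 13 measured HIF targets held the largest decrease in each line. In the docetaxel-resistant line 5 fell and 3 rose, and in the paclitaxel-resistant line 5 fell and 4 rose, which is 61.5% and 69.2% called, where 21.0% and 21.6% of all genes were. The 5 that fell were the same in both: VEGFA, BNIP3, NDRG1, ADM and DDIT4. NDRG1, a stress-induced cytosolic protein and a common marker of hypoxia, read 2494, 2452 and 2526 in sensitive cells, 570.0, 688 and 615 in the docetaxel-resistant and 1037, 731 and 1012 in the paclitaxel-resistant line. The 3 groups did not overlap, with the docetaxel-resistant arrays lowest. It fell by 1.99 ± 0.15 (0.251 of the sensitive level, adjusted p = 7.08e-06) and 1.38 ± 0.15 (adjusted p = 9.84e-05).

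BNIP3, a mitochondrial protein that promotes mitophagy, read 1399, 1346 and 1911 in sensitive cells, 518, 754 and 860.0 in the docetaxel-resistant and 618, 580.0 and 644 in the paclitaxel-resistant line. All resistant arrays lay below all sensitive ones, and it fell by 1.19 ± 0.18 (adjusted p = 0.000844) and 1.30 ± 0.18 (adjusted p = 0.000445). DDIT4, or REDD1, which restrains mTORC1, read 1110.4, 1610.1 and 1894 in sensitive cells, 674, 834 and 729 in the docetaxel-resistant and 557, 526 and 470.1 in the paclitaxel-resistant line. Again no resistant array reached the sensitive range. DDIT4 fell by 1.05 ± 0.21 (adjusted p = 0.00461) and 1.49 ± 0.21 (adjusted p = 0.000532).

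VEGFA, the angiogenic growth factor, read 1018, 1189 and 1338 in sensitive cells, 712, 759 and 744 in the docetaxel-resistant and 756, 515 and 499 in the paclitaxel-resistant line. Every resistant array was below every sensitive one. It fell by 0.71 ± 0.17 (adjusted p = 0.0133) and 0.99 ± 0.17 (adjusted p = 0.00201), and its 3 other probe sets were called lower in both lines, down to -1.15 and -1.59. The docetaxel call was lost without sensitive replicate 3 (adjusted p = 0.0538). ADM, the vasodilator peptide adrenomedullin, fell by 0.79 ± 0.15 and 0.52 ± 0.15. The paclitaxel call of ADM was lost without sensitive replicate 2 or 3 or paclitaxel-resistant replicate 1 or 3 (adjusted p = 0.0680 to 0.0895).

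PLOD2, a lysyl hydroxylase that modifies collagen, rose in both lines from a low level. It read 26.6, 38.8 and 44.9 in sensitive cells, 81.7, 70.7 and 136 in the docetaxel-resistant and 126, 81.8 and 102 in the paclitaxel-resistant line. The resistant arrays all lay above the sensitive ones. The differences were 0.88 ± 0.19 (adjusted p = 0.00744) and 1.11 ± 0.19 (adjusted p = 0.00191), and the second probe set gave 1.29 and 1.40. The other lysyl hydroxylase, PLOD1, stood at -0.05 and 0.13.

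BHLHE40, or DEC1, a transcriptional repressor with circadian and hypoxic roles, read 199, 244 and 342 in sensitive cells, 539, 657 and 639.8 in the docetaxel-resistant and 533, 519.8 and 633 in the paclitaxel-resistant line. All resistant arrays lay above all sensitive ones. It rose by 1.10 ± 0.19 (adjusted p = 0.00210) and 1.04 ± 0.19 (adjusted p = 0.00264). Its second probe set gave 0.71, not called (adjusted p = 0.0698), and 0.81, called (adjusted p = 0.0392).

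P4HA1, a collagen prolyl hydroxylase, rose by 0.92 ± 0.30 in the paclitaxel-resistant line (adjusted p = 0.0494) and stood at 0.58 ± 0.30 in the other (adjusted p = 0.212). Its sensitive arrays read 347, 92.9 and 146, with sensitive replicate 1 inside the resistant range. Without that array the differences were 1.33 in the paclitaxel (adjusted p = 0.00114) and 0.99 in the docetaxel comparison (adjusted p = 0.00607), both called. The paclitaxel call was lost without sensitive replicate 2 or 3, docetaxel-resistant replicate 1 or 2, or any paclitaxel-resistant array (adjusted p = 0.0522 to 0.163). It was kept under only 3 of 18 alternatives. Offsets of 1 and 64 (0.0941 and 0.0773), median scaling (0.0941) and the replicate block (0.0653) were among those that lost it. P4HA2, which belongs to the same enzyme family, stood at 0.20 and -0.07. BNIP3L, the relative of BNIP3 that clears mitochondria, rose by 0.53 ± 0.16 in the paclitaxel-resistant line (adjusted p = 0.0392) and stood at -0.16 in the other. A second BNIP3L probe set gave 1.20 and 0.39, and the call on the first was lost without any one sensitive array, docetaxel-resistant replicate 1 or 2 or paclitaxel-resistant replicate 3 (adjusted p = 0.0560 to 0.129). MXI1, which opposes MYC, stood at 0.41 and 0.14.

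CA12, a membrane carbonic anhydrase that helps set the pH outside the cell, moved differently in the lines. Its intensities ran from 105 to 177 in sensitive cells, from 240.3 to 268 in the docetaxel-resistant and from 119 to 121 in the paclitaxel-resistant line. The docetaxel-resistant arrays lay above all others, and the paclitaxel-resistant arrays lay within the sensitive range, though below all sensitive arrays after normalization. CA12 rose by 0.59 ± 0.14 in the docetaxel-resistant line (adjusted p = 0.0101) and stood at -0.31 ± 0.14 in the paclitaxel-resistant line (adjusted p = 0.146). Of its 6 probe sets, 3 were called higher in the docetaxel comparison. Of these, 1 was called higher there (0.85, adjusted p = 0.00345 over all probe sets) and lower in the paclitaxel comparison (-0.51, adjusted p = 0.0465). Used for the gene when the _x_at and _s_at probe sets were left out, it gave CA12 an adjusted p of 0.0487 in the paclitaxel comparison.

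**Figure D3:**
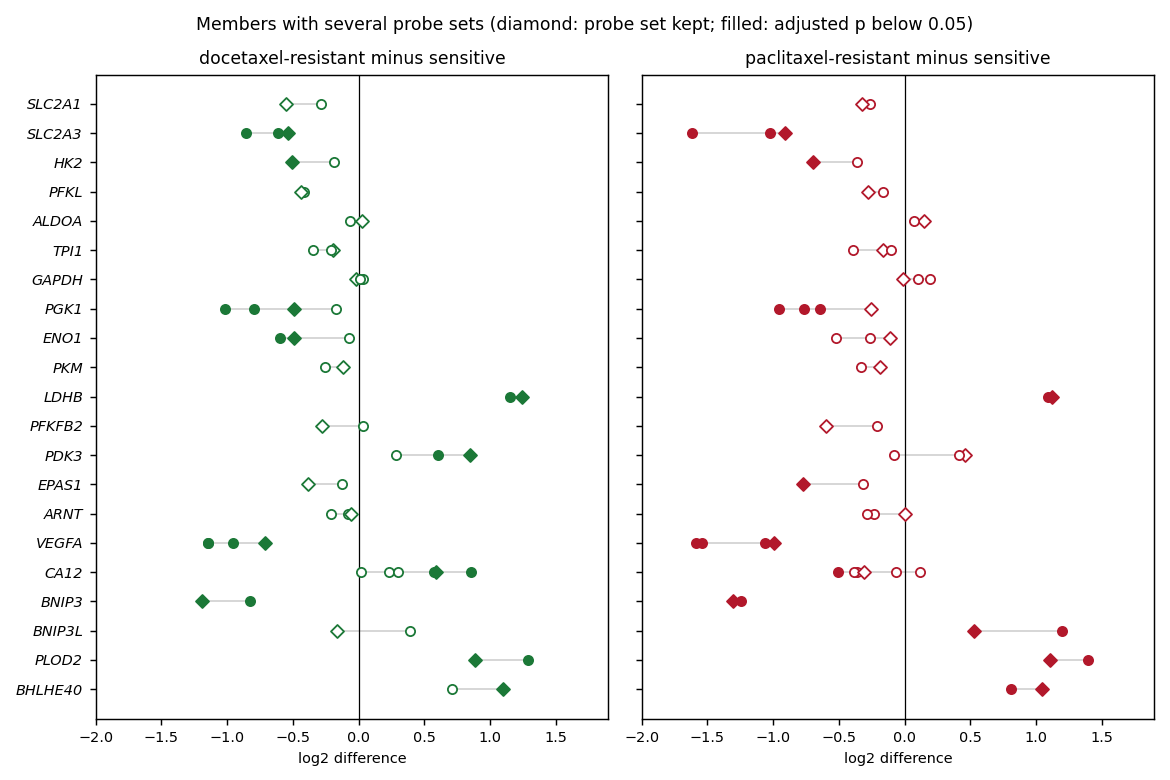
Log2 difference from sensitive cells for every probe set of the 21 genes with more than 1, in each line; diamonds mark the probe set used and filled symbols an adjusted p below 0.05. All VEGFA and SLC2A3 probe sets lie below 0 and are filled in both lines, whereas those of PGK1 run from -1.01 to -0.17 on the left.

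Compared directly, the resistant lines differed in 2 of the 42 genes (4.76%), where 1.96% of all genes were called (0.978% higher and 0.986% lower in the paclitaxel-resistant line). ALDOC was higher in the paclitaxel-resistant line by 0.98 ± 0.21 (adjusted p = 0.0357). That call was lost without any one array but sensitive replicates 1 and 2, with an adjusted p of up to 0.132. It was also lost with an offset of 1 (0.120) and with the replicate block (0.0562). CA12 was lower in the paclitaxel-resistant line, at -0.89 ± 0.14 (adjusted p = 0.00751), and 4 of its 6 probe sets were called, with differences between -1.36 and -0.66. The other 40 genes were not called, though 11 of the 42 had an unadjusted p below 0.05. The intervals still allow differences: ENO2 0.80 (95% interval 0.39 to 1.21, adjusted p = 0.0575), BNIP3L 0.69 (0.33 to 1.05, adjusted p = 0.0584) and NDRG1 0.61 (0.27 to 0.94, adjusted p = 0.0725). These 3 and ENO1 were each called under some alternatives, ENO2 also without sensitive replicate 2 (adjusted p = 0.0211), BNIP3L with probe sets averaged (0.0299) and NDRG1 and ENO1 with the trend and robust options (0.0365 and 0.0406). For PFKFB3 the interval ran from -0.15 to 0.48, for BNIP3 from -0.51 to 0.28 and for BHLHE40 from -0.47 to 0.37.

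**Figure D4:**
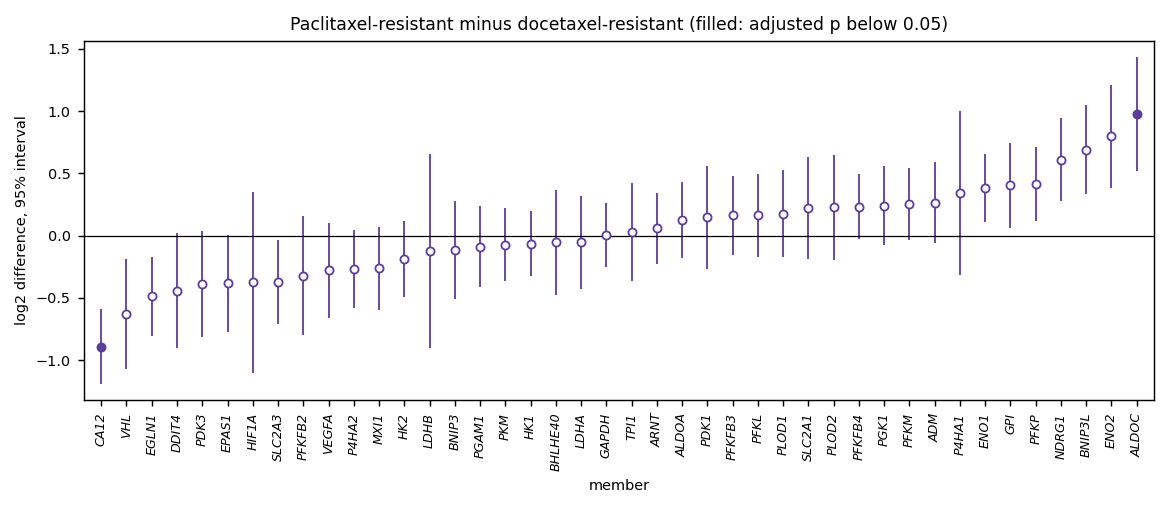
Log2 difference between the paclitaxel-resistant and docetaxel-resistant lines with its 95% interval for the 42 genes, in order of size; filled points have an adjusted p below 0.05. CA12 (-0.89) and ALDOC (0.98) stand at the ends and are the 2 filled points.

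Genes of adjoining pathways, 88 of them measured, were called at 30 (15 higher, 15 lower) in the docetaxel and 28 (15 higher, 13 lower) in the paclitaxel comparison, which is 34.1% and 31.8%, where 21.0% and 21.6% of all genes were called. As above, the shares of all genes are larger among genes at or above the median level, 37.3% in the docetaxel comparison. Among 10 genes of pyruvate dehydrogenase and mitochondrial pyruvate entry, 4 rose and none fell in the docetaxel-resistant line, and 3 rose and 1 fell in the paclitaxel-resistant line, with medians of 0.50 and 0.36. PDHA1, a catalytic subunit, rose by 1.23 ± 0.17 and 0.88 ± 0.17, PDHX, which anchors the dehydrogenase that completes the complex, by 1.36 ± 0.30 and 1.25 ± 0.30, and PDHB by 0.70 ± 0.15 in the docetaxel-resistant line. Of 18 other enzymes of glycolysis and gluconeogenesis, 1 rose and 3 fell in the docetaxel-resistant line and 2 fell in the paclitaxel-resistant line. That is near the share of all genes called in the first comparison and below it in the second. FBP1, the gluconeogenic enzyme that opposes phosphofructokinase, fell by 1.68 ± 0.13 and 1.80 ± 0.13, from a mean intensity of 135 to 34.6 and 29.5; with an offset of 64 the differences were -1.08 and -1.14. PC, pyruvate carboxylase, fell by 0.86 ± 0.19 and 0.93 ± 0.19. ADPGK, an ADP-dependent glucokinase, rose by 0.62 ± 0.15 in the docetaxel-resistant line, a call lost without docetaxel-resistant replicate 2 (adjusted p = 0.0546).

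In the pentose phosphate pathway, 1 of 7 rose and 4 fell in the docetaxel-resistant line, and 1 rose and 2 fell in the paclitaxel-resistant line. Of all genes, 21.0% and 21.6% were called. PGLS, the lactonase, fell by 1.32 ± 0.22 and 1.24 ± 0.22, and H6PD, the hexose 6-phosphate dehydrogenase of the endoplasmic reticulum, by 0.87 ± 0.14 and 1.08 ± 0.14. RPIA, ribose 5-phosphate isomerase, rose by 0.96 ± 0.19 and 0.61 ± 0.19; the paclitaxel call was lost without sensitive replicate 2, docetaxel-resistant replicate 2 or any paclitaxel-resistant array (adjusted p = 0.0597 to 0.137). Of 6 glycogen genes, 1 rose and 1 fell in each line. PYGL, liver glycogen phosphorylase, rose by 0.95 ± 0.14 and 0.91 ± 0.14, and PPP1R3C, a subunit that directs a phosphatase to glycogen, fell by 0.55 ± 0.14 and 0.62 ± 0.14. The docetaxel call of PPP1R3C was lost without docetaxel-resistant replicate 3 (adjusted p = 0.0689).

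Of 15 further HIF pathway components, 2 rose and 2 fell in the docetaxel-resistant and 3 rose and 1 fell in the paclitaxel-resistant line. These counts are not far from the share of all genes called, 21.0% and 21.6%. HSP90AA1, a chaperone of HIF1A, rose by 1.35 ± 0.44 and 1.58 ± 0.44. Its docetaxel call (adjusted p = 0.0489) was lost without any one of sensitive replicates 2 and 3, docetaxel-resistant replicates 2 and 3 and paclitaxel-resistant replicates 2 and 3 (adjusted p = 0.0538 to 0.192). Every other alternative but genes at or above the median level also lost it, from 0.0512 with the trend and robust options to 0.0955 with an offset of 1. Its paclitaxel call was lost without sensitive replicate 2 or 3 or paclitaxel-resistant replicate 1 or 2 (0.0684 to 0.102), and with an offset of 1 (0.0577). EP300, a coactivator, rose by 0.97 ± 0.23 in the paclitaxel-resistant line, and SIAH1, a ubiquitin ligase, by 1.11 ± 0.20 in the docetaxel-resistant line.

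Of 32 further HIF targets, 6 rose and 5 fell in the docetaxel-resistant line, and 7 rose and 6 fell in the paclitaxel-resistant line. Of all genes, 21.0% and 21.6% were called. IGFBP3, a binding protein of insulin-like growth factors, fell in both lines, with differences of -1.86 ± 0.17 and -2.40 ± 0.17. TFRC, the transferrin receptor, rose by 1.54 ± 0.29 and 1.95 ± 0.29 and AKAP12, a kinase scaffold, by 2.08 ± 0.31 and 1.16 ± 0.31. The paclitaxel call of AKAP12 was lost without sensitive replicate 1 or paclitaxel-resistant replicate 1 or 2 (adjusted p = 0.0539 to 0.0626). Between the resistant lines, 3 of the 88 (3.41%) were called, where 1.96% of all genes were, all higher in the paclitaxel-resistant line: ANGPTL4 by 1.60 ± 0.13, PYGB by 0.94 and LOXL2 by 0.93, which are named here after their values were seen.

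Markers of other cell states were counted in the same way, where 21.0% and 21.6% of all genes were called. Of 12 luminal markers 3 rose in the docetaxel-resistant and 4 in the paclitaxel-resistant line and none fell, with summed intensities of 6355 to 7608 in sensitive, 6537 to 7546 in docetaxel-resistant and 6706 to 7174 in paclitaxel-resistant cells. Of 8 mesenchymal markers 1 rose and 3 fell in each line, and their sums were 13108 to 15960 in sensitive, 8879 to 9577 in docetaxel-resistant and 9730 to 10314 in paclitaxel-resistant cells. VIM alone averaged 8335, 4682 and 5223 and so makes up much of that sum, whereas SPARC, at 15.6, 251 and 101, hardly enters it. Fibroblast markers summed to 316 to 325, 506 to 653 and 368 to 461, with 2 and 1 of 8 called higher. Blood markers summed to 544 to 617, 591 to 631 and 615 to 707, with none of 6 called by limma and 1 and 0 at an unadjusted p below 0.05. Endothelial markers summed to 188 to 291, 169 to 196 and 154 to 207, with 1 of 6, PECAM1, called lower in each line. Their part in the results on glycolysis and HIF genes was not tested.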

How the data were processed

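Total RNA (5 µg per array, per the labels' protocols) from 3 passages of each group was measured on 9 arrays. The deposited values are 1 linear intensity per probe set and array; Affymetrix Expression Console 1.1.2 and PLIER are named per the submitters' processing notes, and how background was corrected, arrays were scaled or probe sets were called detected is not given in the sources used here. Probe-level files were not used here. The number of arrays and the signal limit the precision, and several calls also depend on the scaling, the probe set or a single array.

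Of 22283 probe sets, 68 controls were set aside; of 22215 others, 19065 named 1 gene in the platform annotation, 1043 several and 2107 none, and 19053 matched the RefSeq gene table. The highest-mean probe set per gene gave 11963 genes. Values became log2(intensity + 16) and were quantile-normalized over all 9 arrays, since array medians differed by 0.27, above a limit of 0.2. R 4.3.3 with limma 3.58.1 fitted 3 group means and 3 contrasts (6 residual and 5.40 prior degrees of freedom) and a moderated F test, two-sided, with Benjamini-Hochberg adjustment over all genes. The procedure was tested on simulated data. An exact permutation test of 3 against 3 arrays could not go below p = 0.1.

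The genes, lists and tests were chosen with earlier results of these data known. Values in every array are given for genes called with a log2 difference of at least 1 in size, and for SLC2A1, GAPDH, LDHA, PGK1, HIF1A and VEGFA. Other genes are given by difference or range, and each adjoining list by up to 3 called genes with the largest difference. Alternatives were offsets of 1 and 64, median scaling or none, the mean of probe sets, no probe sets ending in _x_at or _s_at, genes at or above the median level, limma's trend and robust options, the replicate number as a block, each array left out, and only the 2 groups compared.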

Additional observations from a re-analysis of the deposited data

Results flagged for a closer look

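Of the 42 genes, 2 were marked because the response to resistance differed between the lines by a test of the difference itself. ALDOC was 0.98 log2 units higher in the paclitaxel-resistant than in the docetaxel-resistant line (adjusted p = 0.0357 by limma), on top of increases of 1.22 and 2.20 from sensitive cells. This call between the lines was kept under 10 of 19 alternatives. CA12 differed by -0.89 (adjusted p = 0.00751), with 0.59 in the docetaxel and -0.31 in the paclitaxel comparison. In both genes the arrays of the resistant lines did not overlap. A CA12 probe set not used gave -1.36. The doses of the drugs differed, and which of dose, drug and line goes with these differences cannot be told apart.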

How the results depend on the processing

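No called difference changed sign under any alternative. Without scaling, the docetaxel calls of SLC2A3, HK2 and LDHB and the paclitaxel calls of HK2, LDHB, BNIP3L and P4HA1 were lost. Of the 18 calls in the docetaxel comparison 11 were kept under every alternative in which the gene was measured, of the 18 in the paclitaxel comparison 12, and of the 2 between the lines 1 (CA12). With each array left out in turn, the members called were 12 to 21, 13 to 17 and 1 to 3, and 17 to 23 by the F test, and the further pathway genes 22 to 35, 22 to 31 and 1 to 4. Between the lines the count of members, 2, became 1 with an offset of 1, 5 with an offset of 64, 5 among genes at or above the median level, 6 with the trend and robust options and 1 with the replicate block; the further pathway genes, 3, became 1 with an offset of 1. Leaving out the _x_at and _s_at probe sets, 24 members were measured and 9, 9 and, by the F test, 12 were called. Of 54 further pathway genes measured then, 18, 18 and 0 were called by limma, the last with 8 at an unadjusted p below 0.05; fewer genes were measured there, and the cause of the other changes was not tested. Same-numbered arrays correlated between -0.45 and 0.34 in their deviations from group means. Differently numbered arrays were not compared in this way, so whether the numbers pair the arrays was not tested. The replicate block gave 17 and 15 calls against sensitive cells and 19 by the F test, and 27, 26 and 3 further pathway genes. Of members not called, 6, 6 and 4 were called under at least 1 alternative. Of values not called, 16 of 443, 23 of 445 and 18 of 738 changed sign. The F test has no value with only the 2 groups compared. The standard error of a difference had a median of 0.16 over all genes, and intensities near the offset of 16 hold little order.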
